A study of Mus musculus with 11 samples.

Results

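A set of 39 genes of DNA replication and S phase was followed across RNA sequencing libraries of embryonic mouse retinas that had Six3 and Six6 or lacked 1 or both of them. They were picked by name, and all 39 were present in a table of 13498 genes and passed the filter on low counts, which kept 13292 genes for testing. The products of Six3 and Six6 are closely related homeobox transcription factors that act in the eye field and in dividing retinal progenitors, and the question of the series was whether both are needed to keep those progenitors. Total RNA came from retinas of NMRI mouse embryos at E13.5 (embryonic day), each library from a pair of retinas, and 11 libraries were analysed.

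Every embryo carried floxed Six3 on both chromosomes (Six3F/F), and tamoxifen was given to every dam on days E10.5 and E11.5. The WT group (3 libraries: rh016, rh023 and rh024) was Six3F/F; Six6+/+ without Cre, and so was exposed to the drug but not to the recombinase. The Six3KO group (3 libraries: rh006, rh012 and rh026) was Six3F/F; CAGGCre-ERTM; Six6+/+, where CAGGCre-ERTM is a broadly expressed Cre recombinase joined to an estrogen receptor fragment, which tamoxifen switches on. The Six6KO group (2 libraries: rh007 and rh020) was Six3F/F; Six6-/- without Cre, with Six6 missing from the germ line. The DKO group (3 libraries: rh010, rh011 and rh021) was Six3F/F; CAGGCre-ERTM; Six6-/-. Cre was present in the Six3KO and DKO groups only, so loss of Six3 and presence of Cre cannot be told apart in any comparison of those groups with WT or Six6KO. The authors removed 1 Six6KO library for high duplication, which leaves 2 values and no SD in that group. Values are listed in the library order given here.

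A cell copies its genome once per division. Before S phase, the origin recognition complex with Cdc6 and Cdt1 loads the ring-shaped MCM2-7 helicase onto DNA. Cyclin E and its kinase, Cdc45 and the GINS complex then turn the loaded ring into a moving helicase, and DNA polymerases, the sliding clamp PCNA and its loader RFC follow it. Ribonucleotide reductase and thymidylate synthase supply the building blocks, and CAF-1 places histones on the new DNA. Many of these genes are transcribed late in G1 under the control of E2F factors, and in the embryonic retina they are expressed by dividing progenitors and turned off in the neurons that leave the cycle. In bulk RNA, fewer cycling cells and less of these RNAs per cell cannot be told apart.

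Depth ran from 7807744 to 16403191 reads in genes per library, and the members had between 111 (Orc1) and 5533 (Rrm1) reads in a library. Levels are given as CPM, a gene's reads scaled to a common library total, with library sizes adjusted by TMM. Each targeted gene was lower in its own mutants than in WT. Six3 was at 30.3 to 75.9 CPM in Six3KO, 56.2 to 98.2 in DKO and 164 to 299 in WT. Six6 was at 131 and 76.8 CPM in Six6KO, 52.8 to 99.8 in DKO and 225 to 340 in WT, so Six6 reads remained in Six6-null libraries. In the other single mutant, Six6 was at 335, 339 and 168 CPM in Six3KO and Six3 at 307 and 142 in Six6KO. There rh026 (Six6) and rh020 (Six3) were below every WT library. Reads of Esr1, part of which is in the Cre fusion, were at 50.2 to 62.0 CPM in the Six3KO and DKO libraries and at most 0.625 CPM in the others. All 12 retinal progenitor markers (Pax6, Rax and others) were detected in every library, with summed levels of 3299 to 4397 CPM in WT and 3745 to 3950 in DKO. Six3KO library rh026 and Six6KO library rh020 stood apart, with the lowest neuron marker scores of the 11 libraries (-1.1 and -0.95 on the log2 scale set against WT), and rh026 also had the lowest progenitor score (-0.52). Lens marker scores were 6.74 and 5.64 in these libraries and 7.07 in Six3KO library rh012, against -2.89 to 2.74 in WT. Periocular mesenchyme markers, which come from tissue around the eye, were at scores of -3.84 to -2.86 in DKO against -2.40 to 1.23 in WT, with 14 of 14 tested markers below 0 in DKO against WT. Markers of macrophages and microglia were at 1.60, 1.54 and 0.26 in DKO against -0.64 to 0.32 in WT (1 of 9 below 0 in DKO against WT), and 1.13 and 1.11 in rh026 and rh020. Neuron markers were below 0 in 13 of 15, endothelial markers in 10 of 10, pigment epithelium markers in 8 of 9, lens markers in 18 of 18 and red blood cell markers in 6 of 6. Of all genes 50.8% were below 0. The scores of DKO and WT libraries overlapped in each of these lists except that of the mesenchyme, where every DKO library was below every WT library. Lens scores were -2.75, 0.22 and -3.07 in DKO against -2.89, 0.15 and 2.74 in WT. WT library rh023 was below every DKO library for pigment epithelium (-2.67) and endothelium (-2.33). Of all these markers edgeR called 1 of the mesenchyme, Col1a1 (-4.51, adjusted p = 0.0475), and 1 of the endothelial list, Kdr (-1.09, adjusted p = 0.0274). Over all genes 1.29% passed. Kdr did not follow the rest of the endothelial list. In WT library rh023 it was at 182 CPM, with Cdh5 at 0.93 and Pecam1 at 1.16 CPM. In Six3KO library rh012 these values were 169, 2.30 and 1.06 CPM. Its lower level in DKO is therefore not read as a change in endothelium.

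In retinas lacking both genes, every one of the 39 replication genes had an estimate below WT. The median log2 fold change of the members was -0.27 (a level 17.1% lower), and the estimates ran from -0.63 for the GINS subunit Gins2 to -0.09 for the helicase subunit Mcm7. Over all 13292 genes tested the median was -0.0036, and 50.8% of them had an estimate below 0. No member passed the test on its own (edgeR quasi-likelihood, Benjamini-Hochberg adjusted p under 0.05 over all genes, two-sided), where 1.29% of all genes passed. At an unadjusted p under 0.05 there were 11 members (28.2%), all lower, against 7.53% of all genes in that direction. DESeq2 likewise called 0 members (5.82% of all genes), with 13 at an unadjusted p under 0.05 (14.7% of all genes), and its smallest adjusted p among the members was 0.0518. In 11 members every DKO library lay below every WT library, a pattern that 8.46% of all genes showed. These members were Cdc6, Cdc45, Gins2, Gins3, Pold1, Rfc2, Rfc3, Rrm2, Tyms, Chaf1b and Uhrf1, and in 0 members did every DKO library lie above every WT library (9.03% of all genes). The genes share libraries and move together, so these counts are not counts of independent events.

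**Figure D1:**
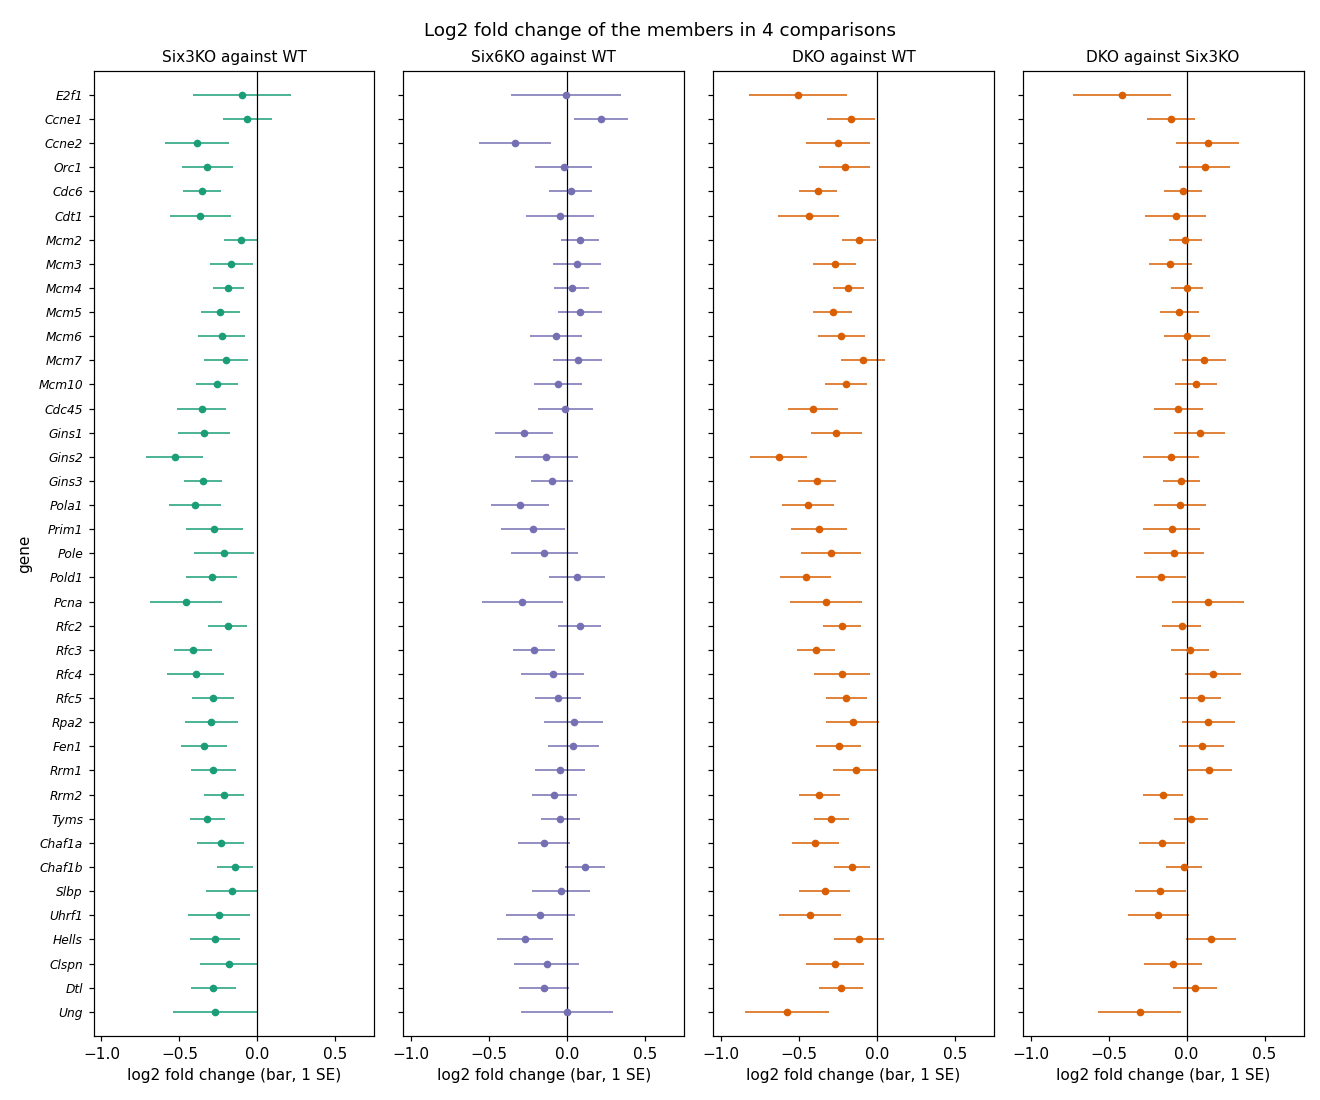
Log2 fold change of each of the 39 members (points on the horizontal axis, with bars of 1 standard error to each side from the edgeR fit) in 4 comparisons, with the genes ordered by role on the vertical axis. All 39 points lie left of 0 in DKO against WT and in Six3KO against WT, while 26 do so in Six6KO against WT and 22 in DKO against Six3KO.

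A shift of similar size was present with loss of Six3 alone. In Six3KO against WT all 39 estimates were again below 0 (51.4% of all genes), with a median of -0.28 (17.5% lower; -0.0054 over all genes) and a range from -0.53 for Gins2 to -0.06 for Ccne1. No member passed in edgeR (0.00752% of all genes) or in DESeq2 (0.136%). An unadjusted p under 0.05 was reached by 8 members in edgeR (Cdc6, Cdc45, Gins2, Gins3, Pola1, Rfc3, Fen1 and Tyms, named after their values were seen), all lower, against 1.20% of all genes, and by 7 members in DESeq2 (3.93% of all genes). In 12 members every Six3KO library lay below every WT library (3.70% of all genes). Without Six3KO library rh026 the median was -0.20 and 2 members had an unadjusted p under 0.05. That count was 5 without WT library rh016, 4 without rh023 and 18 without rh024, against 0.82% to 2.53% of all genes lower at that level in these 4 fits. This comparison and the one of DKO share the WT libraries, so they are not independent of each other.

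Loss of Six6 alone came with little displacement of the members. In Six6KO against WT, 26 of 39 estimates were below 0 (48.5% of all genes), the median was -0.05 (0.0086 over all genes) and the range ran from -0.34 (Ccne2, which encodes cyclin E2) to 0.22 (Ccne1, which encodes cyclin E1). No member was called by edgeR (0% of all genes) or DESeq2 (0.0151%), and 0 had an unadjusted p under 0.05 with edgeR (3.90% of all genes). Both Six6KO libraries were below all WT libraries in 2 members, the GINS subunits Gins1 and Gins3 (5.85% of all genes), and above them in Chaf1b (7.20%). The interval for a single gene remained wide with 2 libraries: for Gins2 the estimate was -0.13 ± 0.20 with a 95% interval of -0.59 to 0.32.

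DKO and Six3KO, both with Cre, were close to each other. Estimates for DKO against Six3KO were below 0 in 22 of 39 members (47.5% of all genes), with a median of -0.02 (0.012 over all genes) and a range from -0.41 (E2f1) to 0.17 (the clamp loader subunit Rfc4). No member was called by edgeR (0.587% of all genes) or DESeq2 (5.83%), and 0 had an unadjusted p under 0.05 with edgeR (13.2% of all genes). The libraries of these groups overlapped in all 39 members, whereas in 23.9% of all genes every DKO library lay below, or every one above, all Six3KO libraries. The 95% interval of the difference for Cdc6 was -0.30 to 0.25 and for Mcm5 -0.32 to 0.23, and a difference of that size in either direction could not be resolved. Without DKO library rh011, 14 of 39 estimates were below 0.

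Against Six6KO, DKO was lower in 36 of 39 estimates (53.1% of all genes), with a median of -0.21 (-0.020 over all genes) and a range from -0.57 (the uracil glycosylase Ung) to 0.15 (the chromatin remodeller Hells). No member passed in edgeR (0.233% of all genes) or DESeq2 (5.05%), 5 had an unadjusted p under 0.05, all lower (8.57% of all genes), and 6 did in DESeq2 (16.8%). The edgeR count was 1 without DKO library rh010 or rh011, 13 without DKO library rh021, 8 without Six6KO library rh007 and 3 without rh020, against 4.68% to 9.84% of all genes lower at that level in these 5 fits. In 11 members the DKO libraries were all below both Six6KO libraries, a share of 28.2% against 18.6% of all genes. The departure from additivity asks whether the joint loss differs from adding the effects of both single losses. It had 17 members below 0 (51.2% of all genes), 0 called by edgeR (0% of all genes) or DESeq2 (1.82%), 0 at an unadjusted p under 0.05 with edgeR (9.99% of all genes) and a median of 0.05 (-0.0092 over all genes). Its lowest estimate was that of E2f1 at -0.40 ± 0.47 and its highest that of Ccne2 at 0.47 ± 0.31.

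Because the groups with lower values were those that carried Cre, the 6 libraries with Cre (Six3KO and DKO, each group weighted equally) were set against the 5 without (WT and Six6KO), a comparison added after the data had been seen. Its p-values and counts come from the same values that prompted the grouping, so they are descriptive and not an independent test. All 39 members had estimates below 0 (53.1% of all genes), with a median of -0.25 (15.8% lower; -0.012 over all genes) and a range from -0.51 (Gins2) to -0.06 (Hells). With edgeR 0 members were called (0.0226% of all genes) and 15 had an unadjusted p under 0.05, all lower (38.5% of the members against 5.27% of all genes). In DESeq2 15 had one (10.9% of all genes). The edgeR count was 9 without DKO library rh011, 10 each without DKO library rh010, Six3KO library rh026 or WT library rh023, and 26 without DKO library rh021, against 3.16% to 8.48% of all genes lower at that level in these 5 fits. DESeq2 called 1 of 39 members, Cdc6, at -0.37 (adjusted p = 0.0265), where it called 1.79% of all genes. In 2 members, Cdc6 and Gins3, all 6 libraries with Cre were below all 5 without, which 0.301% of all genes showed. No member had its highest level in a library with Cre: the highest library was WT for 26 members and Six6KO for 13. The share of all genes with that order was not counted, and the members move together, so this is a description only. The matching comparison of the Six6-null groups with the groups that have Six6, also added afterwards, had 25 members below 0 (49.3% of all genes), a median of -0.05 (0.0024 over all genes), 0 calls by edgeR (0.0903% of all genes) or DESeq2 (1.45%) and 0 members at an unadjusted p under 0.05 with edgeR (7.28%). Cre and loss of Six3 cannot be told apart here either.

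**Figure D2:**
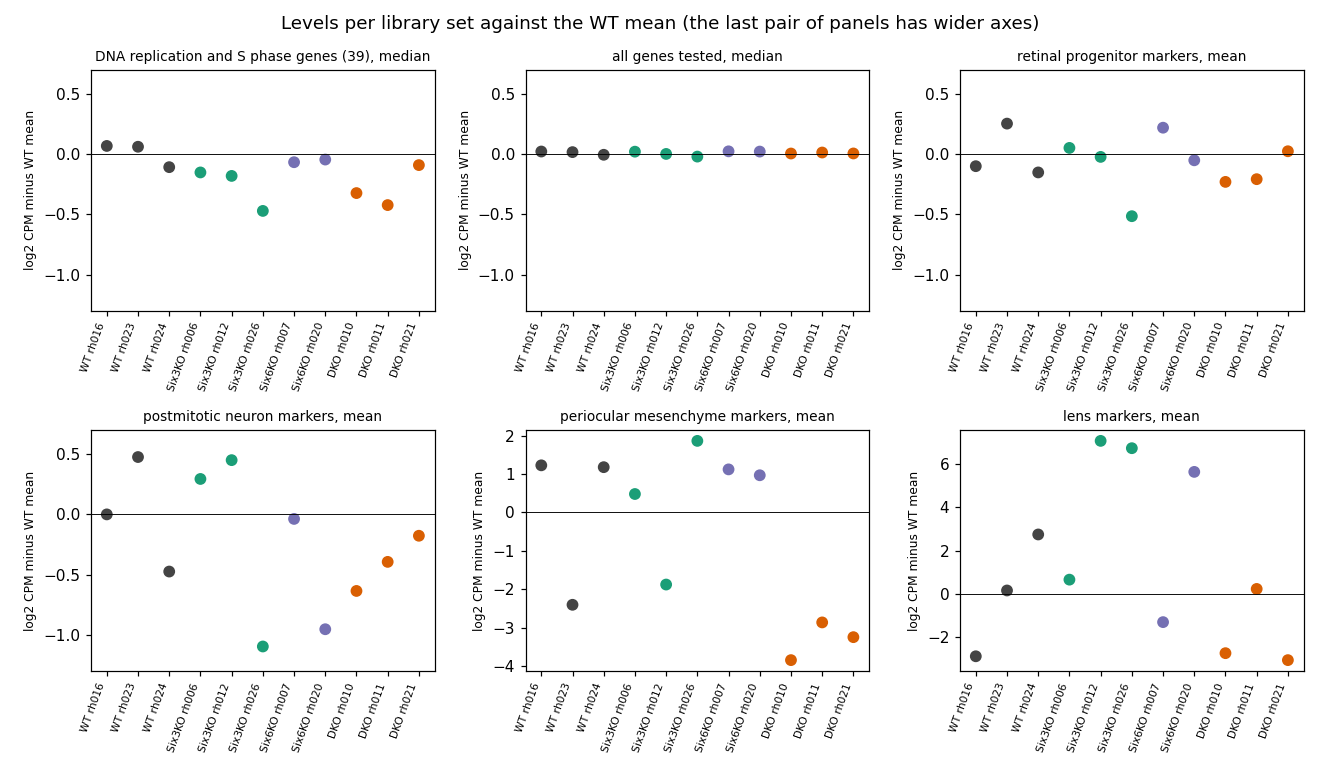
Per-library scores in 6 panels (1 point per library, coloured by genotype; vertical axes in log2 CPM minus the WT mean): the median over the members, the median over all genes, and the mean over progenitor, neuron, mesenchyme and lens markers, the last pair on wider axes. The members' score was -0.47 to -0.15 in Six3KO and -0.42 to -0.09 in DKO, while the median over all genes stayed between -0.02 and 0.02.

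Within each genotype the libraries were not alike. A library's score is the median, over the 39 members, of its log2 deviation from the WT mean. In DKO it was -0.32 in rh010, -0.42 in rh011 and -0.09 in rh021, and in Six3KO it was -0.15 in rh006, -0.18 in rh012 and -0.47 in rh026. The Six6KO libraries were at -0.07 and -0.05 and the WT libraries at 0.07, 0.06 and -0.11. DKO library rh021 thus lay within the WT range. It had the highest level of the 3 DKO libraries in 38 of 39 members, and it was also the DKO library with the most Six3 (98.2 CPM) and Six6 (99.8 CPM) reads. Without it the DKO median was -0.39 and 23 members had an unadjusted p under 0.05 (0 called; 6.56% of all genes were lower at that level), whereas without rh010 or rh011 the median was -0.24 or -0.19 with 4 members each (4.34% or 5.05% of all genes). WT library rh024 was the lowest of WT in 22 members, and leaving it out gave a DKO median of -0.34 with 17 members at an unadjusted p under 0.05 (6.74% of all genes), while leaving out WT library rh023 gave -0.24 with 5 (8.23%). Six3KO library rh026 was the lowest of Six3KO in 36 members and the lowest of all 11 libraries in 20, and DKO library rh011 was the lowest of all in 14. The share of all genes with the same order of libraries was not counted for any of these ranks. Summed over the 39 members, levels were 4402 ± 288 CPM in WT, 3697 ± 433 in Six3KO and 3663 ± 455 in DKO (mean ± SD, n = 3 each), and 4175 and 4261 CPM in the Six6KO libraries.

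The progenitor markers moved with part of this pattern. Their score (mean deviation of 12 genes from the WT mean) was -0.23, -0.21 and 0.02 in DKO, 0.05, -0.02 and -0.52 in Six3KO, 0.22 and -0.05 in Six6KO and -0.10, 0.25 and -0.15 in WT. The libraries with the lowest replication scores in DKO and Six3KO (rh010, rh011 and rh026) were also the lowest of their groups in progenitor markers. With that score as a covariate, chosen after seeing the data, the DKO against WT median was -0.22 with all 39 members below 0 and 11 lower at an unadjusted p under 0.05 (28.2% of the members, against 11.2% of all genes lower in that fit). The mean deviation of the members minus the progenitor score was -0.13, -0.23 and -0.11 in DKO, -0.23, -0.16 and 0.06 in Six3KO, -0.27 and -0.02 in Six6KO and 0.14, -0.19 and 0.05 in WT. The 4 groups overlapped on this scale, and the lowest of the 11 values was that of Six6KO library rh007. With the neuron score as a covariate the median was -0.21, and with the mesenchyme score it was -0.42. None of these fits called a member, and the part of tissue composition in the result was not tested beyond them.

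**Figure D3:**
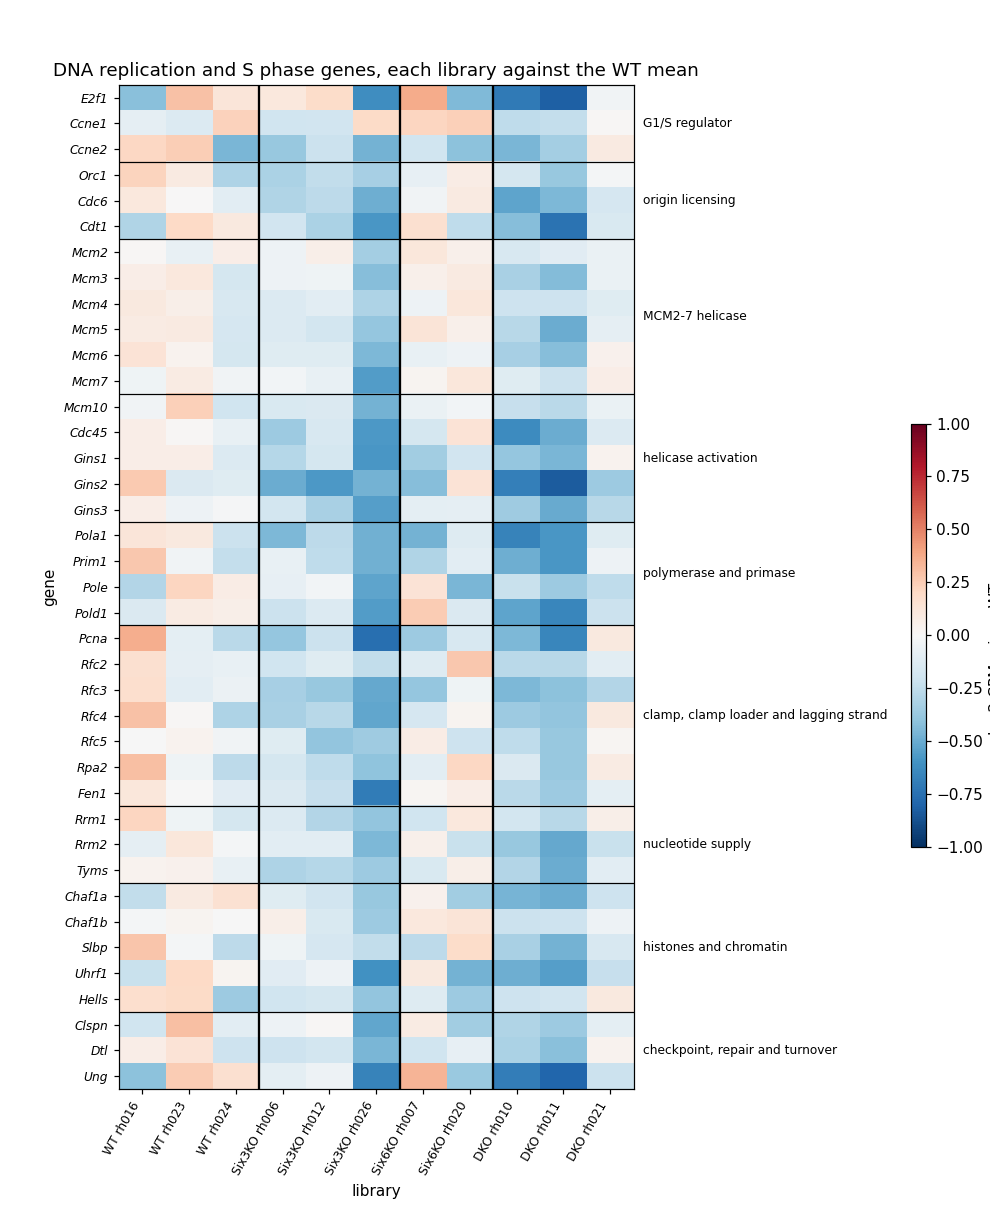
Heat map of the log2 deviation of each member (rows, by role) from its WT mean in each of the 11 libraries (columns, by genotype), blue below and red above. DKO libraries rh010 and rh011 are below the WT mean in 39 of 39 members, DKO library rh021 in 27 and Six3KO library rh026 in 38. Of all genes tested, 49.2% (rh010), 47.9% (rh011), 49.0% (rh021) and 52.5% (rh026) were below it.

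Many of these genes are known E2F targets, and their promoter sequences are given here ahead of the single genes. RefSeq promoters (GRCm38.p6, 250 bases before to 50 after the annotated start) were at hand for 33 of the 39 members. The RefSeq start lay within 60 bases of the start of the GENCODE gene in 26 of 36 member promoters and up to 1156 bases from it in the others. E2F letters were searched as TTTGGCGC, TTTCCCGC, TTTCGCGC and TTTGCCGC on both strands, and 15 of 33 members had a match (45.45%), against 27.54% of 69 other replication genes and 4.716% of 10179 tested genes with a promoter. Counted by promoter, 41.67% of 36 member promoters and 2.265% of all 32851 promoters in the table held one. The other motifs, also on both strands, had these shares: CCAAT was present in 63.64% of members and 43.03% of tested genes, TTTGAA (the CHR element of late cell cycle genes) in 12.12% and 13.7%, and GGGCGG (the GC box) in 69.7% and 70.16%. Of the 21 E2F matches in members, 12 lay within 60 bases of the RefSeq start. A match is a run of letters and not a shown binding site, and an absent match says only that these letters are not in the window. A single E2F match overlapped a CCAAT box.

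The promoters of 4 members with E2F letters and 1 without are shown 5′ to 3′, with the E2F letters in capitals. Cdc6 (chr11:98907901-98908200, plus strand) and Gins3 (chr8:95633309-95633608, plus strand) are the members in which all libraries with Cre lay below all others, Rfc3 (chr5:151651159-151651458, minus strand) had the lowest p of the members in Six3KO against WT, Mcm5 (chr8:75109259-75109558, plus strand) carries overlapping E2F letters on both strands, and Rrm2 (chr12:24708004-24708303, plus strand) had non-overlapping DKO and WT libraries without any of these letters.
Cdc6: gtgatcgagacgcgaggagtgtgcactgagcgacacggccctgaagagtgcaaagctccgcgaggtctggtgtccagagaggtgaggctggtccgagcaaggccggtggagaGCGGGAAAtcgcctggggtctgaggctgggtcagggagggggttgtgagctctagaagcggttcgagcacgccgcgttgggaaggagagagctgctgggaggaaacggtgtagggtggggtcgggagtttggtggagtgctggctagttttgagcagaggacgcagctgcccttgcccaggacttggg
Gins3: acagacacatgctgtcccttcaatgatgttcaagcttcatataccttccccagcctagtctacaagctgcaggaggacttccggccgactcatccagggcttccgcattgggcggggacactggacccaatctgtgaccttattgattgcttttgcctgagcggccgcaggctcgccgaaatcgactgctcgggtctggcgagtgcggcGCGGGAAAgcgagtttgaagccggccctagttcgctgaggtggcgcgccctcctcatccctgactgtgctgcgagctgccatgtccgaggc
Rfc3: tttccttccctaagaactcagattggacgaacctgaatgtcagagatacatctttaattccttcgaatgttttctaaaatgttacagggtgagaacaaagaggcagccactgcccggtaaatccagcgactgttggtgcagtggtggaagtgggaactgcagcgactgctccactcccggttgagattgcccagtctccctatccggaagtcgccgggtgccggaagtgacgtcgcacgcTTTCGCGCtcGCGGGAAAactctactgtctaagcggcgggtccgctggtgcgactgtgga
Mcm5: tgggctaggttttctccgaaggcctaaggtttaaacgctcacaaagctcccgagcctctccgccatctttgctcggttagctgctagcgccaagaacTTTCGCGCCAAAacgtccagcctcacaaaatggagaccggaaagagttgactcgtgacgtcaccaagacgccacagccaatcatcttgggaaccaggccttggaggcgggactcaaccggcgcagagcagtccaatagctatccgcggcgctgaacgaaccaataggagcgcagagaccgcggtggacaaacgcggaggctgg
Rrm2: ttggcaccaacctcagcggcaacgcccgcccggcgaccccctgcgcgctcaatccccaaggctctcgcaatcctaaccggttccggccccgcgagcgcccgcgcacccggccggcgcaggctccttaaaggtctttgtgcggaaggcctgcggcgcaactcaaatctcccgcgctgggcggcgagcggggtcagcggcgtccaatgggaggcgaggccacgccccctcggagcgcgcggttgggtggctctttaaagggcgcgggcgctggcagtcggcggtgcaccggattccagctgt

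Positions are counted from the RefSeq start. The Cdc6 match begins at base -138 and the Gins3 match at -41. These RefSeq starts lie 350 (Cdc6) and 106 (Gins3) bases downstream of the GENCODE gene starts, so both matches fall inside the gene as GENCODE places it, 212 and 65 bases from its start. In Rfc3 matches begin at -10 and 1, and in Mcm5 at -153 and -149. Rrm2 has a CCAAT box at -50 and no E2F letters. Members with and without E2F letters had like estimates. In DKO against WT the median was -0.28 for the 15 with the letters and -0.27 for the 18 without, and in Six3KO against WT it was -0.28 and -0.28.

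**Figure D4:**
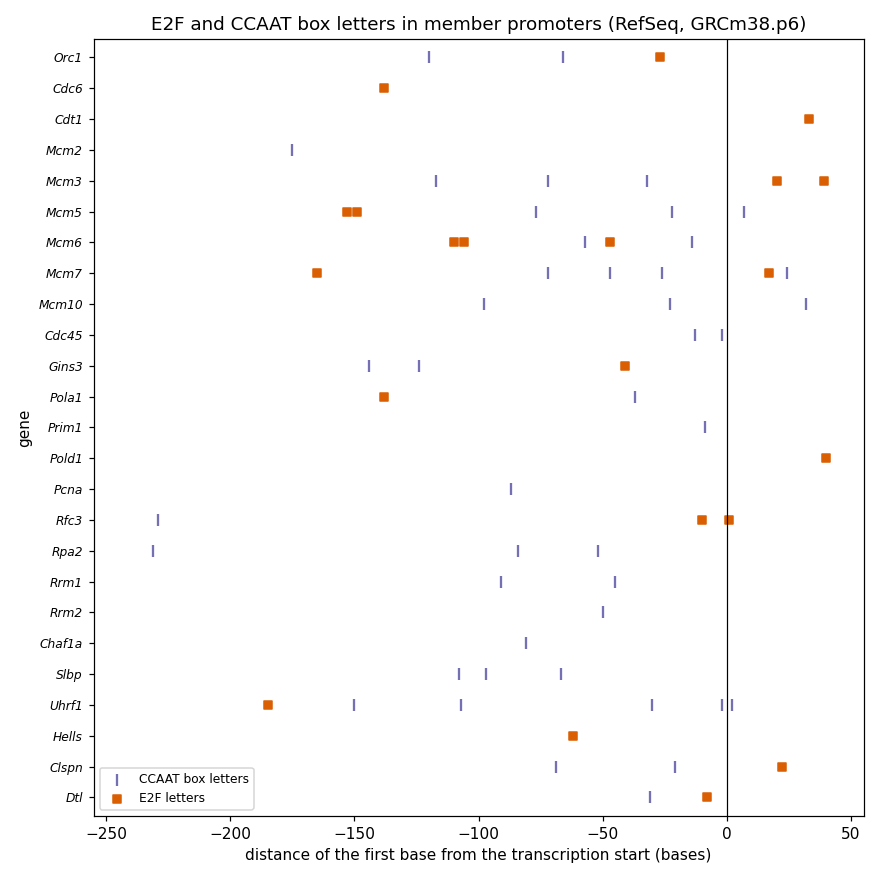
Position of E2F letters (squares) and CCAAT boxes (ticks) in the member promoters that hold either (horizontal axis, bases from the RefSeq start; 1 row per gene). E2F letters are found in 15 members, and 12 of their 21 matches lie within 60 bases of the start.

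Among the regulators of entry into S phase, E2f1 encodes a transcription factor of these genes and Ccne1 and Ccne2 encode the E-type cyclins. E2f1 (chr2:154559407-154569892, minus strand, GRCm38) stood at 53.9, 88.3 and 78.6 CPM in WT, 77.7, 81.7 and 46.9 in Six3KO, 93.5 and 53 in Six6KO and 44.2, 40.8 and 70.2 in DKO. WT library rh016 and Six6KO library rh020 were low and DKO library rh021 was high, so the groups overlapped. The DKO against WT estimate was -0.51 ± 0.31 (adjusted p = 0.594) and the Six3KO against WT estimate -0.10 ± 0.31, which turned to 0.11 without Six3KO library rh026. Ccne2 stood at 54.2, 56 and 34.3 CPM in WT, 36.2, 40.6 and 33.9 in Six3KO, 41 and 35.4 in Six6KO and 34.2, 37.2 and 50.2 in DKO. WT library rh024 was as low as the mutants, and the DKO estimate was -0.25 ± 0.20. Ccne1 was at 18.3 to 25.8 CPM over all libraries, with -0.16 ± 0.16 in DKO, -0.06 ± 0.16 in Six3KO and 0.22 ± 0.17 in Six6KO, each against WT.

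All 3 origin licensing genes had estimates below 0, with a median of -0.38 in DKO and -0.35 in Six3KO. Cdc6 (chr11:98907801-98923940, plus strand), the ATPase that brings the helicase to origins, stood at 51.3, 48 and 44.3 CPM in WT, 38.7, 39.7 and 34 in Six3KO, 46.5 and 50.8 in Six6KO and 33, 35 and 42.6 in DKO. All 6 Six3KO and DKO libraries were below all 5 WT and Six6KO libraries, by a margin that was narrow for DKO library rh021. The estimates were -0.38 ± 0.12 in DKO (23% lower, adjusted p = 0.198), -0.35 ± 0.12 in Six3KO and 0.02 ± 0.14 in Six6KO. Cdt1 (chr8:122568015-122573554, plus strand), the helicase-loading partner of Cdc6, stood at 51.4, 72.7 and 67.8 CPM in WT, 55.4, 50.9 and 42.3 in Six3KO, 70.9 and 53.2 in Six6KO and 47, 37.8 and 56.9 in DKO. WT library rh016 lay among the Six3KO libraries, and the DKO estimate was -0.44 ± 0.19 (adjusted p = 0.384). Orc1, the largest subunit of the origin recognition complex, was the least abundant member by reads and had -0.20 ± 0.16 in DKO and -0.32 ± 0.16 in Six3KO.

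The helicase subunits Mcm2 to Mcm7 had the smallest displacement of the roles with 4 or more genes, with a median of -0.20 in DKO (6 of 6 below 0), -0.19 in Six3KO (6 of 6) and 0.07 in Six6KO (1 of 6). Mcm5 (chr8:75109569-75128439, plus strand) stood at 209, 211 and 176 CPM in WT, 180, 174 and 152 in Six3KO, 216 and 205 in Six6KO and 164, 141 and 186 in DKO. WT library rh024 was below DKO library rh021, so DKO and WT overlapped, and the estimate was -0.28 ± 0.12 (adjusted p = 0.378). Mcm3 (chr1:20802968-20820312, minus strand) stood at 220, 225 and 186 CPM in WT, 203, 203 and 156 in Six3KO, 217 and 223 in Six6KO and 168, 156 and 200 in DKO. Both Six6KO libraries were above all 3 DKO libraries, and the DKO against WT estimate was -0.27 ± 0.14 (adjusted p = 0.471). Mcm7, at -0.09 ± 0.14, was the member nearest to 0 in DKO against WT, and DKO library rh021 (160 CPM) was among the highest of its values.

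The genes that turn the loaded helicase into a working one held the lowest single estimate of both Six3KO and DKO. In each, 3 of 5 genes had an edgeR unadjusted p under 0.05, against 7.53% of all genes lower at that level in DKO and 1.20% in Six3KO. Over all 39 members that share was 28.2% in DKO and 20.5% in Six3KO. Nucleotide supply had 2 of 3 such genes in DKO and 1 of 3 in Six3KO, and polymerase and primase had 2 of 4 and 1 of 4. Gins2 (chr8:120578633-120589304, minus strand), a subunit of the GINS complex, stood at 42.5, 32.1 and 32.6 CPM in WT, 25.1, 23.8 and 25.5 in Six3KO, 26.3 and 38.9 in Six6KO and 22, 19.9 and 27.6 in DKO. WT library rh016 and Six6KO library rh020 were high, and all 6 Six3KO and DKO libraries were below all 3 WT libraries. The estimate was -0.63 ± 0.18 in DKO (35.3% lower, adjusted p = 0.143) and -0.53 ± 0.18 in Six3KO. Exons of Gins2 overlap 2758 bases of Gse1 on the other strand, whose own estimate in DKO was -0.52 ± 0.37, and without a known strand setting reads of these genes cannot be told apart. Gins3 (chr8:95633453-95645060, plus strand), another GINS subunit, has no such overlap and stood at 27.7, 25.4 and 26.1 CPM in WT, 23.2, 21 and 18 in Six3KO, 24.6 and 24.8 in Six6KO and 20.6, 18.6 and 21.7 in DKO. Its DKO and Six3KO libraries were below all others, with -0.38 ± 0.12 in DKO (adjusted p = 0.190) and -0.35 ± 0.12 in Six3KO.

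Cdc45 (chr16:18780447-18811987, minus strand), the third part of the active helicase besides GINS and MCM2-7, stood at 51, 49 and 46.1 CPM in WT, 37.8, 43.6 and 32.6 in Six3KO, 43 and 53.6 in Six6KO and 31.4, 34.4 and 44.2 in DKO. Its DKO and Six3KO libraries were below all WT libraries, while Six6KO library rh007 lay below DKO library rh021. The estimates were -0.41 ± 0.16 in DKO (adjusted p = 0.291) and -0.36 ± 0.16 in Six3KO. Gins1 and the origin firing factor Mcm10 had DKO estimates of -0.26 and -0.20.

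All 4 polymerase and primase genes had estimates below 0 in DKO (median -0.41) and Six3KO (-0.29). Pold1 (chr7:44532746-44548849, minus strand), the catalytic subunit of the lagging-strand polymerase delta, stood at 71.8, 83.9 and 82.7 CPM in WT, 68.4, 72.3 and 53.8 in Six3KO, 94.4 and 71.8 in Six6KO and 55.1, 50.5 and 68.2 in DKO. Every DKO library was below every WT library, though rh021 came close to WT library rh016, and the estimate was -0.46 ± 0.16 (27.1% lower, adjusted p = 0.247). Pola1 (chrX:93304767-93632155, minus strand), the catalytic subunit of the priming polymerase alpha, stood at 196, 192 and 155 CPM in WT, 132, 151 and 129 in Six3KO, 129 and 164 in Six6KO and 113, 121 and 166 in DKO. All Six3KO libraries were below all WT libraries, but DKO library rh021 was above WT library rh024. The estimates were -0.44 ± 0.17 in DKO (adjusted p = 0.274), -0.40 ± 0.17 in Six3KO and -0.30 ± 0.19 in Six6KO. The primase subunit Prim1 had -0.37 ± 0.18 and the leading-strand polymerase Pole -0.29 ± 0.19 in DKO.

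The clamp, its loader and the lagging-strand factors (7 genes) had a median of -0.22 in DKO and -0.34 in Six3KO. Rfc3 (chr5:151642756-151651242, minus strand), a clamp loader subunit, stood at 61.9, 51.2 and 52.8 CPM in WT, 43.8, 42.2 and 38.5 in Six3KO, 42.1 and 53.4 in Six6KO and 40.3, 41.5 and 44.9 in DKO. All DKO and Six3KO libraries were below all WT libraries, and Six6KO library rh007 was as low as they were. The estimates were -0.39 ± 0.12 in DKO (adjusted p = 0.180) and -0.41 ± 0.12 in Six3KO (edgeR unadjusted p = 0.00705, the smallest among the members there). Rfc2 (chr5:134581366-134601805, plus strand), another loader subunit, stood at 81.7, 68.6 and 69.5 CPM in WT, 63.6, 67.2 and 61.6 in Six3KO, 66.7 and 88.2 in Six6KO and 60.5, 60.05 and 67.8 in DKO. DKO library rh021 reached just below the lowest WT library, and the estimate was -0.22 ± 0.12 (adjusted p = 0.521). Pcna, the clamp itself, had -0.32 ± 0.23 in DKO and -0.46 ± 0.23 in Six3KO. For Fen1, the nuclease that trims lagging-strand flaps, these values were -0.25 ± 0.14 and -0.34 ± 0.14. The loader subunits Rfc4 and Rfc5 had -0.22 ± 0.18 and -0.20 ± 0.13 in DKO. Rpa2, a subunit of the single-strand binding protein, was at -0.15 ± 0.17 in DKO.

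In nucleotide supply, Rrm2 (chr12:24708241-24714146, plus strand), the cell-cycle regulated subunit of ribonucleotide reductase, stood at 135, 155 and 142 CPM in WT, 133, 133 and 105 in Six3KO, 149 and 123 in Six6KO and 111, 101 and 123 in DKO. Every DKO library was below every WT library, and Six6KO library rh020 reached the level of DKO library rh021. The estimate was -0.37 ± 0.13 in DKO (adjusted p = 0.239) and -0.22 ± 0.13 in Six3KO. Its partner subunit Rrm1 differed less, at -0.14 ± 0.14. Tyms (chr5:30058202-30073617, minus strand), thymidylate synthase, stood at 91.2, 91.9 and 84.5 CPM in WT, 71.8, 73.2 and 69.2 in Six3KO, 80.3 and 92.8 in Six6KO and 72.6, 63.3 and 82.8 in DKO. All Six3KO libraries and DKO libraries rh010 and rh011 were well below WT, and DKO library rh021 was just below WT library rh024. The estimates were -0.29 ± 0.11 in DKO (adjusted p = 0.283) and -0.32 ± 0.11 in Six3KO.

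Of the genes for histones and chromatin, Chaf1a (chr17:56040439-56072289, plus strand), the large subunit of the histone chaperone CAF-1, stood at 94.7, 119 and 125 CPM in WT, 103, 98.4 and 86.2 in Six3KO, 116 and 88 in Six6KO and 81.3, 79.6 and 97.1 in DKO. DKO library rh021 lay above WT library rh016, and the estimate was -0.39 ± 0.15 (adjusted p = 0.276). Uhrf1 (chr17:56303321-56323486, plus strand), which guides DNA methylation to newly copied strands, stood at 261, 351 and 311 CPM in WT, 282, 295 and 200 in Six3KO, 326 and 220 in Six6KO and 217, 208 and 260 in DKO. DKO library rh021 was all but level with WT library rh016, and the estimate was -0.43 ± 0.20 (adjusted p = 0.403). Chaf1b, the middle subunit of CAF-1, was at 40.6, 42.1 and 41.2 CPM in WT and 35.6, 35.7 and 39.9 in DKO, with -0.16 ± 0.12. The histone mRNA-binding protein gene Slbp had -0.33 ± 0.16, and Hells had -0.11 ± 0.16 in DKO and -0.27 ± 0.16 in Six3KO.

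In the last role, Ung (chr5:114130386-114139323, plus strand), which removes uracil from DNA, stood at 20.8, 33.2 and 31 CPM in WT, 25.9, 26.8 and 17.4 in Six3KO, 35.2 and 21.4 in Six6KO and 17.1, 15.9 and 23.9 in DKO. The spread within groups was wide relative to the level, and DKO library rh021 was above WT library rh016. The estimate was -0.57 ± 0.27 in DKO (adjusted p = 0.414), -0.27 ± 0.27 in Six3KO and 0.00 ± 0.30 in Six6KO. Dtl (chr1:191537356-191575544, minus strand), the substrate receptor of the ligase that degrades Cdt1 in S phase, stood at 171, 179 and 141 CPM in WT, 141, 144 and 119 in Six3KO, 142 and 154 in Six6KO and 130, 122 and 167 in DKO. DKO library rh021 was near the higher WT libraries, and the estimate was -0.23 ± 0.14 (adjusted p = 0.596). Clspn, which encodes the checkpoint mediator claspin, was at -0.27 ± 0.19.

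**Figure D5:**
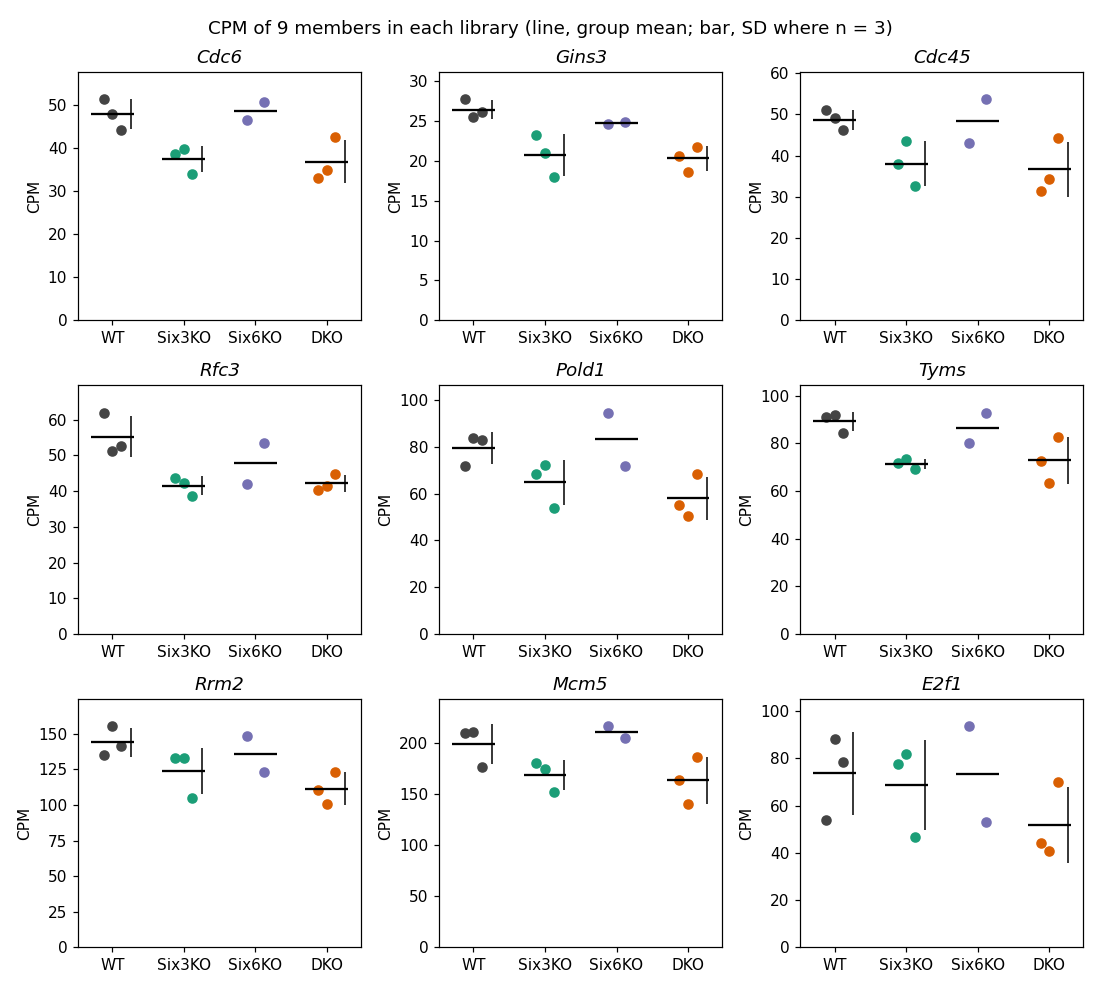
Level of 9 members in CPM (vertical axes, from 0) in each of the 11 libraries (points, grouped by genotype; bars mark the group mean and, for groups of 3, the SD). For Cdc6 and Gins3 all Six3KO and DKO points lie below all WT and Six6KO points.

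Per kilobase of annotated exon, the members spanned a wide range of levels in WT. Rrm1 (93.2 ± 13.2 CPM per kb, mean ± SD, n = 3), Uhrf1 (83.9 ± 12.2) and Mcm6 (75.9 ± 8.31) were highest, and Orc1 (5.91 ± 1.1), Gins2 (9.17 ± 1.5), Gins3 (9.75 ± 0.421) and Cdc6 (10.01 ± 0.732) were among the lowest. The SD ranges of the top 3 overlapped. Across the 11 libraries the members moved together: over 741 pairs the median Pearson correlation of log2 CPM was 0.67, with 728 pairs above 0, and for deviations from the group means it was 0.56, with 637 above 0. These points share libraries and their composition, so the values are descriptive. Ccne1 was the least coupled, with a median correlation of 0.14 to the other members.

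Other genes of the pathway, a list of 94 of which 93 were tested, were read in the same fit. In DKO against WT 76 of 93 estimates were below 0 (81.7%, against 50.8% of all genes) with a median of -0.15. Among them 0 were called by edgeR (1.29% of all genes) and 3 by DESeq2 (3.23%, below the 5.82% of all genes), and 12 had an unadjusted p under 0.05 in edgeR, all lower (12.9% against 7.53%). In Six3KO against WT 86 were below 0 (92.5% against 51.4%; median -0.16), with 7 at an unadjusted p under 0.05, all lower (7.53% against 1.20%). In Six6KO against WT 66 were below 0 (71% against 48.5%; median -0.11), and in DKO against Six3KO the median was 0.04. The 3 lowest p-values among them in the DKO comparison belonged to Ccnd1 and Cdk6, a cyclin and its kinase that drive progress through G1, and the thymidine kinase gene Tk1. Ccnd1 stood at 1447, 2285 and 1090 CPM in WT, 967, 1171 and 501 in Six3KO, 1345 and 637 in Six6KO and 210, 204 and 584 in DKO. All DKO libraries were below all WT libraries, with rh021 the highest of the 3, and the estimate was -2.27 ± 0.53 (adjusted p = 0.0840). Cdk6 stood at 156, 256 and 156 CPM in WT, 137, 155 and 88.5 in Six3KO, 199 and 83.8 in Six6KO and 56.1, 59.6 and 105 in DKO, with -1.36 ± 0.38 (adjusted p = 0.137), and its DKO libraries too were below all WT libraries. Tk1 stood at 27, 25 and 19.4 CPM in WT, 20.1, 19.7 and 19.1 in Six3KO, 23.1 and 28.9 in Six6KO and 13.9, 15.7 and 17.8 in DKO, with -0.59 ± 0.16 (adjusted p = 0.124), and its DKO libraries were below those of all other groups. DESeq2 called these 3 genes, and edgeR without DKO library rh021 called 1, Ccnd1 at -2.96. Exons of all 3 overlap those of a gene on the other strand.

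Shared reads limit some members. Exons of 12 of the 39 overlap a gene on the opposite strand, among them Gins2, Chaf1a (Ubxn6, 0.07 ± 0.13 in DKO against WT), Rfc2 (Lat2, 0.01 ± 0.48), Ccne2 (Ints8, 0.08 ± 0.10), Cdc45 and Mcm7. In addition, 13 members share at least 200 bases at 95% identity or more with another annotated gene, which for some is the overlapping gene itself, including Cdc6, Rrm2, Tyms, Uhrf1, Pcna and Mcm7. The labels do not say how reads that map to both were counted, and the values of these members are uncertain to that extent. Of the members whose DKO and WT libraries did not overlap, Gins3, Pold1, Rfc3 and Chaf1b have neither an overlapping gene on the other strand nor such a copy.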

How the data were processed

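Total RNA of retinas of 4 genotypes at E13.5 was sequenced after ribosomal RNA removal. The values are raw counts of reads per gene, 1 column per library, in a table deposited by the authors. The submitters' processing notes list Trim Galore 0.3.7, TopHat2 2.0.13, HTSeq 0.6.1, Cufflinks 2.2.1, Cuffdiff and the mm10 build, without roles, and the design text adds that the authors compared each mutant with WT in DESeq2. Which annotation and strand setting were used, and what left 13498 genes in the table, were not given in the sources used here. Replicates of a genotype differed from each other well beyond sampling noise, with chi-square values of 9.72 to 77.3 for each degree of freedom, and 51 genes had no read in any library. The design text calls the replicates biological.

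Differential expression was tested with edgeR 4.0.16 in R 4.3.3: filterByExpr (minimum count 10), TMM scaling, 1 robust quasi-likelihood fit of all 11 libraries with a mean per genotype, two-sided tests and Benjamini-Hochberg adjustment over 13292 genes, called at 0.05. The standard error is the log2 fold change divided by the square root of F. The fit was tested on simulated data. Alternatives were DESeq2 1.42.0, other scalings (relative log expression, upper quartile, none), no filter, the compared groups alone, each library left out, marker scores as covariates, and a fit without rh026 and rh020. The progenitor covariate and the comparisons by Cre and by Six6 were added after seeing the data. Marker scores are mean log2 CPM (prior count 2).

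Members, roles and lists were chosen with earlier results of these data known. Every library's value is given for the 2 members of each role with the lowest p-values in DKO against WT. Members called anywhere, those with the highest or lowest estimate in a comparison, and those whose DKO and WT libraries do not overlap are named too, as are the 3 other replication genes of lowest p there. Positions and exon lengths are from GENCODE vM21 (GRCm38), promoters from RefSeq (GRCm38.p6), and similar sequences were found with blastn 2.17.0. Figures were drawn with matplotlib 3.10.9.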

Additional observations from a re-analysis of the deposited data

How the results depend on the processing

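Precision is limited by 2 to 3 libraries per genotype and, for the least abundant members such as Orc1 (at least 111 reads in a library), also by counting error. No paired analysis was possible because the columns carry library names and no replicate numbers. A fit on the compared groups alone was not run for the departure or for the comparisons by Cre and by Six6. Of 552 recomputed summaries of comparisons, 535 moved by less than the limits set for them. Under the mesenchyme covariate the member median was -0.42 in DKO against WT and -0.13 for the departure. Members below 0 in DKO against Six3KO numbered 14 with the neuron covariate, and 14 to 33 over fits that left out 1 library (14 without DKO library rh011). In the Six6-null comparison they numbered 12 with the neuron covariate. Calls among the 93 other replication genes were 0 in every comparison as reported. The alternatives that gave any are listed with the share of all genes called in the same fit. In DKO against WT they were 3 (DESeq2, 5.82%), 1 (mesenchyme, 1.23%), 2 (neuron, 5.24%), 2 (progenitor, 5.14%) and 0 to 1 with 1 library left out (1 without DKO library rh021, 1.54%). In DKO against Six3KO they were 2 (progenitor, 3.48%), in DKO against Six6KO 4 (DESeq2, 5.05%), 2 (neuron, 2.75%) and 7 (progenitor, 12.1%), by Cre 1 (DESeq2, 1.79%) and by Six6 2 (progenitor, 1.5%). The share of the 93 genes was below that of all genes in each of these but the last (2.15%). DESeq2 called 1 of 39 members by Cre. The member median ranged from -0.39 to -0.19 in DKO against WT and from -0.32 to -0.20 in Six3KO against WT when 1 library was left out. Of 1296 values of single genes, 12 changed sign, none of them called. In Six3KO against WT, E2f1 was 0.11 without rh026 and rh020 and 0.13 with the progenitor covariate, and ran from -0.28 to 0.11 with 1 library left out (0.065 without WT library rh023); Ccne1 ran from -0.21 to 0.077 (0.0048 without rh006, 0.02 without rh012). In DKO against WT, Mcm7 was 0.0033 with the neuron covariate and Ccne1 0.086 with the mesenchyme covariate. By Cre, E2f1 was 8.49e-05 and Hells 0.065 with the progenitor covariate, and Hells ran from -0.13 to 0.0038 with 1 library left out. The cause was not tested.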
